A study of Rattus norvegicus with 16 samples.

Results

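Solute carriers are the large group of membrane proteins whose gene symbols start with Slc and a family number. The members described here are the 192 probe sets, of 162 genes, whose platform symbol has this form and whose mean over all 16 arrays on the scale of log2(signal + 16) lay above the 30th percentile of the array. They were thus chosen by symbol and by overall signal, from 281 probe sets of 228 Slc genes on the array, and stand among 11106 probe sets above the same level, in which 8060 genes have a probe set of their own. Of the others, 88 probe sets lay at or under this level, which left 65 genes with no member, and 1 probe set, that of Slc34a2, was left out by the rule, which also leaves out Slc7a11. The overall mean chose the members, so it is not a result, and a carrier that is high in a single group could pass through that group. The percentile stood at a log2 value of 6.97, a signal near 109; just inside it lay probe sets of Slc20a2 (6.97) and Slc14a2 (6.99), and just outside it lay others of Slc18a2 (6.96) and Slc22a13 (6.96). Where a gene has several member probe sets, the brightest stands for it below unless another is named; counts and class medians cover all probe sets. Among the genes, 2 carry the letters without being carriers: Slc4a1ap, which encodes kanadaptin, and Slc7a6os, named for its place on the strand opposite Slc7a6.

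The RNA came from lungs of 2 kinds of rat: the spontaneously hypertensive rat (SH), inbred for raised blood pressure, and the outbred Sprague Dawley rat (SD). Each breathed air or the irritant gas sulfur dioxide (SO2), which makes 4 groups (SH air, SH SO2, SD air, SD SO2) of 4 biological replicates with 1 array each. From its title, the study asks whether the SH rat can stand for airways disease brought on by SO2; for carriers the questions are what SO2 did in each strain and how the strains differ. The sources used here give no dose, length of exposure, sampling time or age, and name no genotype beyond the strain.

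Solute carriers use ion gradients, exchange or simple facilitated passage to move sugars, amino acids, ions, metals, nucleosides and metabolic acids across the plasma membrane and the membranes of organelles. The sodium pump maintains the gradient that many of them spend. In the lung, carriers of the epithelium take part in the balance of airway liquid, acid and nutrients, carriers of the endothelium remove amines and nucleosides from blood, and mitochondrial carriers feed respiration. In bulk tissue, fewer cells of a type and less RNA per cell cannot be told apart.

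The deposited values were already scaled to nearly the same mean on every array, so close array levels are no check on the arrays. Median signals ran from 250.2 to 281.8. The median deviation of the members from their own means lay between -0.096 and 0.0993 (log2) on every array. All markers on the array for alveolar type I (5), alveolar type II (6), club (2), ciliated (3) and endothelial cells (4) lay above the filter, as did 4 of 6 for heart muscle. The array labelled SD air replicate 2 stood apart in Terf2ip, a telomere-binding protein gene. The gene was picked with earlier results of these same data known, so it is no independent check. It measured 693.8 on this array, against 1982 to 2363 for the remaining 3 of its group. The SH arrays read 276.2 to 733.2 and the SD SO2 arrays 2048 to 3167. Calls between the strains are given with and without this array.

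Few carriers were called different between the strains. Averaged over air and SO2, 1 of 192 member probe sets was called at an adjusted p under 0.05 (0.521% of members, against 1.53% of all probe sets tested), and 25 had an unadjusted p under 0.05 (13%, against 11.6%). The called gene was Slc39a4, which encodes ZIP4, a zinc importer of the plasma membrane best known from intestine, and it was higher in SH rats; of all probe sets, 0.729% were called higher and 0.801% lower, and 0 members were called lower. Without the array labelled SD air replicate 2, limma called 5 members (2.6%, against 2.49% of all probe sets and 1.36% called higher), each of them higher in SH rats: Slc39a4, Slc5a1, Slc38a2, Slc41a2 and Slc7a8. That array held the highest SD air reading of each of these 5 genes, so leaving it out necessarily raises their differences. The share of carriers called stood near or below that of the array. On all arrays, the 95% interval of the averaged strain difference lay inside -1 and 1 (log2) for 97.9% of members, against 97.6% of all. It lay inside -0.5 and 0.5 for 132 of the 192 members.

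Slc39a4 measured 1696, 1589, 2166 and 1853 in SH air and 1880, 1963, 2023 and 2061 in SH SO2. In SD SO2 it measured 1201, 1108, 1283 and 1345, and in SD air 1084, 2188, 1134 and 1257. The highest value of all 16 arrays was thus that of SD air replicate 2, inside the SH range, and the 8 SH arrays and the other 7 SD arrays did not overlap. Among members Slc39a4 alone had this property, against 0.99% of all probe sets. The averaged strain difference was 0.55 on the log2 scale (SE 0.117, limma adjusted p = 0.0175), with 57.6% of the variance over arrays between strains, and 0.66 (SE 0.0811, adjusted p = 6.47e-05) without SD air replicate 2. The call was lost without SH air replicate 3 (0.50, adjusted p = 0.0518) and with the number at the start of the sample titles as a covariate (0.52, adjusted p = 0.129). Over all 28 alternatives the call held in 26.

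**Figure D1:**
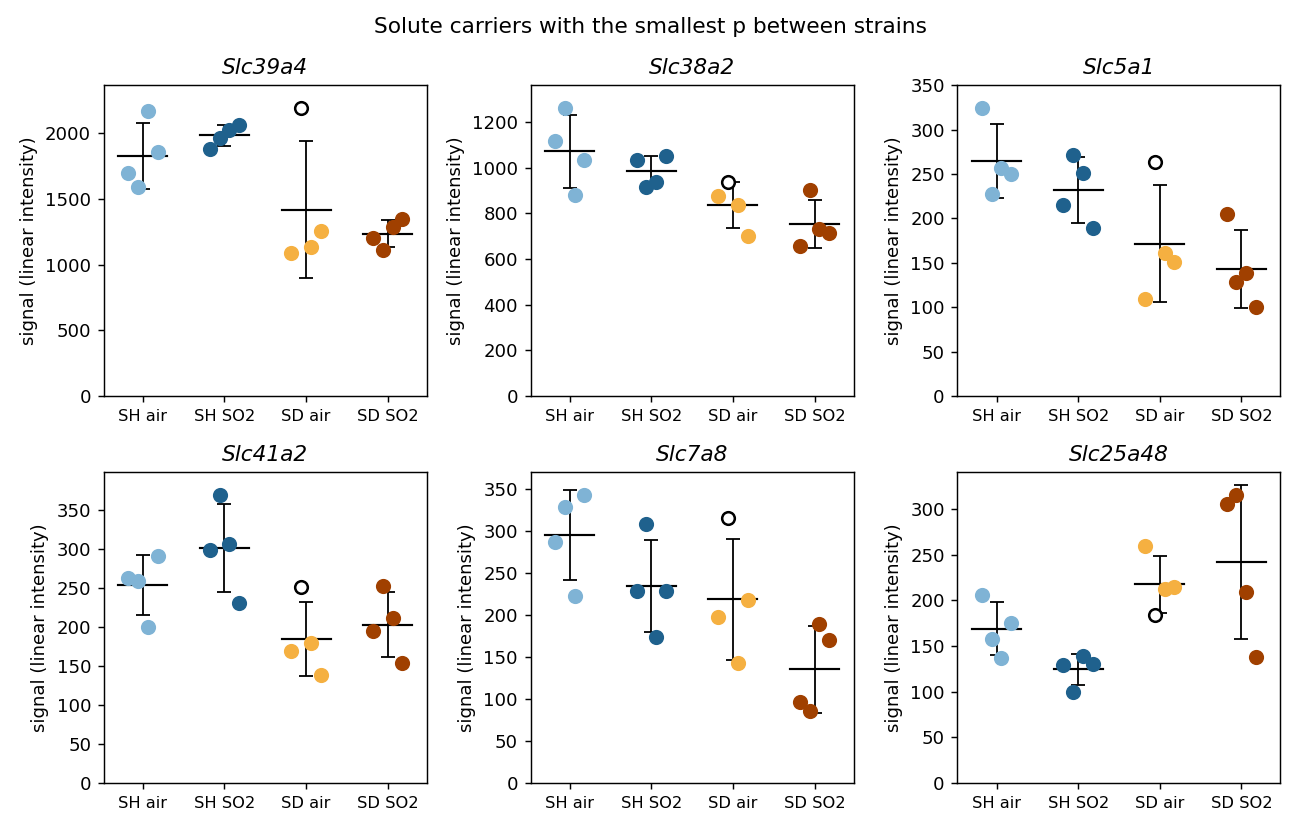
Signal (linear intensity, vertical axis from 0) of 6 solute carriers on each array in the 4 groups; points are arrays, the horizontal line is the mean and the bar 1 SD, n = 4. The open point is the array labelled SD air replicate 2, which for Slc39a4 reads 2188 while the other SD air arrays read 1084 to 1257.

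The other carriers called higher in SH rats without SD air replicate 2 missed the threshold on the full set of arrays. Slc38a2, the sodium-coupled carrier SNAT2 for small neutral amino acids, measured 1116, 1261, 878.6 and 1033 in SH air and 1034, 915.5, 938.1 and 1049 in SH SO2. It measured 873.8, 938.2, 835.9 and 702 in SD air and 657.8, 902.2, 733.4 and 713.4 in SD SO2, so that the strains separated fully in SO2. In air they overlapped only through SD air replicate 2, the 938.2, since the other SD air arrays lay below the lowest SH air array. Its averaged difference was 0.37 (SE 0.0928, adjusted p = 0.0518), and it was called in 9 of 28 alternatives. Among these were the fits without SH air replicate 3 (0.0333), SD air replicate 2 (0.0311) or SD SO2 replicate 2 (0.0233). Over all 28 alternatives its difference ran from 0.29 to 0.41 and its limma adjusted p from 0.0233 to 0.389.

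Slc5a1, the sodium-glucose cotransporter SGLT1, measured 324.2, 227, 256.8 and 250.1 in SH air and 214.6, 271.3, 251.6 and 188.8 in SH SO2. In SD air it measured 109.7, 264, 161.3 and 151.4, the 264 again on replicate 2, and in SD SO2 204.4, 128.2, 138.4 and 100.9. Its difference of 0.65 (SE 0.168, adjusted p = 0.0576) became 0.75 without SD air replicate 2 (adjusted p = 0.00998), and it was also called without SD SO2 replicate 1 (0.73, adjusted p = 0.0289). Slc41a2, a magnesium carrier, averaged 253 ± 38.5 and 301 ± 56.4 in SH air and SO2 against 184.5 ± 47.4 and 202.8 ± 41.1 in SD air and SO2 (SD, n = 4), with a difference of 0.49 (adjusted p = 0.101; 0.56 and 0.034 without SD air replicate 2). Slc7a8 encodes LAT2, an exchanger of neutral amino acids that works bound to the Slc3a2 heavy chain. It averaged 295.3 ± 54 and 234.8 ± 55.1 in SH rats against 218.6 ± 71.7 and 135.2 ± 52.2 in SD rats in the same order, a difference of 0.61 (adjusted p = 0.123; 0.70 and 0.0465 without SD air replicate 2). On that array Slc41a2 read 250.6 and Slc7a8 315.3, the highest value of the SD air group in each case. Over 27 alternatives the limma adjusted p rose to 0.314 for Slc5a1, 0.541 for Slc41a2 and 0.462 for Slc7a8. These genes were called in 3, 1 and 1 of the 27.

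To show the regulatory sequence of carriers called higher in SH rats only when SD air replicate 2 was left out, the bases before the start of Slc38a2, Slc5a1 and Slc7a8 are given; none is shown for Slc39a4 or Slc41a2. They are RefSeq sequences of build GRCr8, whose animal was neither an SH nor an SD rat, 250 bases each, 5′ to 3′ on the gene's strand, with matches to the searched motifs in capitals. The motifs were the GC box GGGCGG, the TATA box TATAAA and CCAAT, on both strands; the letters of these motifs do not overlap in the sequences shown. Slc38a2 lies at chr7:129742620-129742869, Slc5a1 at chr14:81843085-81843334 and Slc7a8 at chr15:32212716-32212965, all on the minus strand.
Slc38a2: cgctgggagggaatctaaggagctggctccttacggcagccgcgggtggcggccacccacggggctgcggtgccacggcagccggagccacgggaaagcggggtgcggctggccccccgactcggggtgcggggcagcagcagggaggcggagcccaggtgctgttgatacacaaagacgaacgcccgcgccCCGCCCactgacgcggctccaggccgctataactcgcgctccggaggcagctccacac
Slc5a1: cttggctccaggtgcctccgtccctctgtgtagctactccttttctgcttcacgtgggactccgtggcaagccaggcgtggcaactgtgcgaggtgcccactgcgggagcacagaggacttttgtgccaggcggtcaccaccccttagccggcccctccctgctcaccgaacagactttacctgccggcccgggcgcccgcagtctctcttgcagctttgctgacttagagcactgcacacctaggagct
Slc7a8: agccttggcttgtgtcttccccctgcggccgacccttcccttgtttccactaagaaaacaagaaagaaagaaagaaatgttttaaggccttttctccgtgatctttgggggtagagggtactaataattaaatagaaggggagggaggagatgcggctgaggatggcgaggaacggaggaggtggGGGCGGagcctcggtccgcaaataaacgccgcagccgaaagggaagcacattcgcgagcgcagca

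The sequences share little by these letters: Slc38a2 and Slc7a8 hold 1 GC box each, Slc5a1 holds none, and no TATA or CCAAT match occurs in the 3 windows. Of the 162 member genes, 135 have windows in the RefSeq table, 147 in all. A GC box occurs in 57.1% of them, against 30.5% of all 33469 windows in the table, TATAAA in 6.8% against 12.9%, and CCAAT in 34% of each. The median share of G and C was 62% in member windows and 51.2% in all windows, and the table's windows include genes that encode no protein.

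Among carriers lower in SH rats, none was called in the averaged comparison. Slc25a48, of the mitochondrial carrier family, had the smallest p of these, with 168.8 ± 29 (air) and 124.4 ± 17.3 (SO2) in SH rats and 217.5 ± 31.4 and 241.8 ± 84.5 in SD rats (-0.58, SE 0.162, adjusted p = 0.0879). SD SO2 replicate 4 read 137.4 against 209.2 to 315.5 on the others of its group, and without it the difference was -0.69 (adjusted p = 0.0154). A second, dimmer probe set of Slc25a48 was at -0.22 on average and -0.34 in air. The 2 probe sets correlated at only r = 0.126 across arrays. Slc49a4, a carrier of the lysosomal membrane, measured 550 to 614 in SH air and 682.4 to 807.8 in SD air, with no overlap, while the SO2 arrays of the strains overlapped (averaged -0.27, SE 0.0838, adjusted p = 0.136). Slc22a23, an organic ion carrier family member (-0.30, adjusted p = 0.186), and Slc37a1, a sugar phosphate exchanger of the endoplasmic reticulum (-0.30, adjusted p = 0.216), followed. These are genes by their brightest probe set. For Slc1a1 a dimmer probe set was at -0.29 on average and the brighter one at -0.071. Slc25a30, a mitochondrial carrier, stood on the other side at 0.46 (adjusted p = 0.183), or 0.23 with the title number as a covariate.

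In air alone, 0 of 192 members were called by limma, as were 0% of all probe sets, with 14 members at an unadjusted p under 0.05 (7.29%, against 6.38%). Air arrays of the strains did not overlap in 5 members (2.6%, against 4.02%). Over all member probe sets, the smallest p in air was that of a dimmer probe set of Slc1a1, a glutamate carrier (-0.40, adjusted p = 0.359). Its air arrays did not overlap, while the brighter probe set of Slc1a1 was at -0.11 with overlap. With 1 probe set per gene, the smallest p in air were those of Slc49a4 (-0.36, adjusted p = 0.438), the phosphate carrier Slc20a1 (0.47, adjusted p = 0.541), Slc5a1 (0.63), Slc38a2 (0.35, or 0.17 with the title number), Slc25a22, a mitochondrial glutamate carrier (-0.66, adjusted p = 0.638), and Slc26a8, an anion exchanger (0.79, adjusted p = 0.672). Also among the 10 were Slc25a30 (0.54, or 0.34 without SD air replicate 4), Slc39a4 (0.41, adjusted p = 0.675), Slc27a1, a fatty acid carrier (-0.32, or -0.19 with the title number), and Slc22a23 (-0.34, or -0.20 without SH air replicate 3). Without SD air replicate 2, Slc39a4 was called in air (0.64, SE 0.119, adjusted p = 0.0126), 1 of 192 members against 0.774% of all probe sets.

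In SO2, 0 of 192 members were called, against 0.81% of all probe sets, and 17 had an unadjusted p under 0.05 (8.85%, against 10.1%). Arrays did not overlap in 6 members (3.12%, against 5.58%). Slc39a4 came closest, at 0.68 (SE 0.166, adjusted p = 0.0651), and was called when only the SO2 arrays were fitted (adjusted p = 0.00908), without SD air replicate 2 (0.00243, 1 of 192 members against 1.04% of all probe sets) and with array quality as a covariate (0.0375). Slc4a2, the chloride-bicarbonate exchanger AE2, measured 994.1, 742, 616.1 and 1007 in SH SO2 against 1174, 1101, 1131 and 1404 in SD SO2. The groups did not overlap (-0.53, SE 0.141, adjusted p = 0.102), and without SH SO2 replicate 4 the gene was called (-0.63, adjusted p = 0.0465). The brighter probe set of Slc25a48 was at -0.82 (adjusted p = 0.127), or -1.05 without SD SO2 replicate 4 (adjusted p = 0.0235). The dimmer one was at -0.22 when averaged over both exposures. Slc7a8 was at 0.77 (adjusted p = 0.216). Slc39a8, which encodes ZIP8, an importer of zinc, manganese and cadmium, averaged 1333 ± 107 in SH SO2 and 964 ± 280 in SD SO2 (0.50, adjusted p = 0.231). The other genes of smallest p were Slc38a2 (0.39), Slc5a1 (0.67), Slc41a2 (0.54), the amino acid exchanger Slc7a7 (-0.38) and Slc22a18, an organic cation carrier (-0.54, or -0.35 without SH SO2 replicate 1).

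The strain differences in air and in SO2 rest on separate arrays. Over the 192 members they correlated at r = 0.264, against 0.345 over all 11106 probe sets, and had the same sign in 112 (58.3%, against 56.3%); without SD air replicate 2 the correlation was 0.28, against 0.339, with the same sign in 56.2%, against 55.7%. Probe sets are not independent replicates, so these values only describe the arrays. Some cell markers also separated the SO2 arrays of the strains: summed signals were 647.6 to 1074 for adipocyte markers in SH against 526.6 to 646.2 in SD rats, 6991 to 9816 against 10110 to 11340 for erythroid markers, and 1160 to 1457 against 1565 to 1731 for macrophage markers. These lists had 4, 3 and 2 markers on the array, of which 2, 3 and 2 lay above the filter. The largest part of each sum was 1 bright gene, and other markers of the lists went the other way. For adipocytes, mean signals in SH and SD rats in SO2 were 587.3 and 277.9 for Car3 but 221.7 and 229.8 for Cfd. The adipocyte markers below the filter stood at 85.7 and 63.2 (Plin1) and at 12.05 and 17.98 (Lep). Erythroid means were 7634 and 10150 for Hbb and 427.5 and 533.2 for Alas2 but 256.5 and 237.6 for Rhd. Macrophage means were 1142 and 1415 for Cd68 but 230 and 206.1 for Mertk. In air 0 of 12 lists separated the strains. The part of these cells in the strain differences was not tested.

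**Figure D2:**
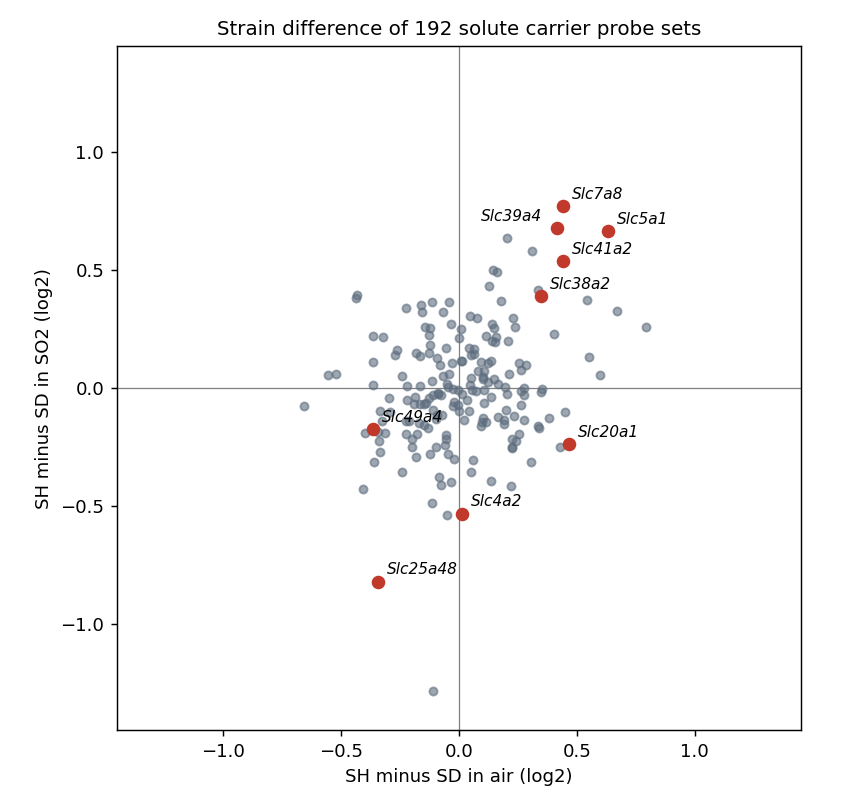
Strain difference (SH minus SD, log2) of the 192 member probe sets in air (horizontal axis) and in SO2 (vertical axis); each point is a probe set, and red points are named. Slc39a4, Slc5a1, Slc38a2, Slc41a2 and Slc7a8 lie above 0 on both axes, at 0.41, 0.63, 0.35, 0.44 and 0.44 in air.

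SO2 exposure left no carrier past the threshold in either strain. In SH rats limma called 0 of 192 members (0% of all probe sets); 9 had an unadjusted p under 0.05 (4.69%, against 4.84%), and in 6 the exposed and unexposed arrays were fully separated (3.12%, against 4.17%). In SD rats it again called 0 of 192 (0% of all), with 16 at an unadjusted p under 0.05 (8.33%, against 8.24%) and 4 without overlap (2.08%, against 3.54%). Averaged over the strains it called 0 (0% of all), with 13 at an unadjusted p under 0.05 (6.77%, against 8.45%). In 0 members were the 8 SO2 arrays separated from the 8 air arrays (0.036% of all probe sets). These counts of 0 stood in all alternatives run, 28 or 29 for each comparison. The 95% interval of the SO2 effect lay inside -1 and 1 on the log2 scale, a change of less than 2-fold, for most members. These were 178 in SH rats (92.7%, against 93% of all probe sets) and 177 in SD rats (92.2%, against 92.7%). It lay inside -0.5 and 0.5 for 85 members in SH and 69 in SD rats.

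The member with the smallest p for SO2, in SD rats and on average, was Slc28a2, the sodium-coupled carrier CNT2 for purine nucleosides. It measured 178.1, 175.3, 113.3 and 141.7 in SH air and 215.3, 238.5, 165 and 242.3 in SH SO2. In SD air it measured 198.4, 124.9, 23.8 and 175.9, and in SD SO2 215.7, 268, 377.2 and 197.3. The groups overlapped within each strain, the lowest value standing on SD air replicate 3. Its change in SD rats was 1.15 (SE 0.377, adjusted p = 0.47), or 0.60 without that array, and the average over strains was 0.81 (adjusted p = 0.407), or 0.53 without it.

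Several amino acid carriers were among the 10 genes of smallest p, none of them called. Slc7a5 encodes LAT1, the exchanger of large neutral amino acids, and read 193.2 ± 21.6 (air) and 224.8 ± 53.7 (SO2) in SH rats and 152.1 ± 44 and 223.8 ± 31.5 in SD rats (averaged 0.36, SE 0.151, adjusted p = 0.529). Its partner chain Slc3a2 averaged 2916 ± 74.8, 2657 ± 340, 3125 ± 484 and 2700 ± 372 in the same order, with overlapping groups. Slc7a6, a further partner of Slc3a2, measured 294.5 ± 27.6, 349.4 ± 32.5, 243.2 ± 55.5 and 326.7 ± 46.7 (averaged 0.33, SE 0.118, adjusted p = 0.44; 0.42 in SD rats, or 0.26 without SD air replicate 3). Slc7a8, by contrast, had values below 0 in both strains (averaged -0.49, SE 0.183, adjusted p = 0.461), as did Slc15a4, a lysosomal carrier of histidine and peptides (-0.27, SE 0.0931, adjusted p = 0.436). For Slc15a4 the group means were 628.4 ± 49.9 and 538.9 ± 77.5 in SH air and SO2 and 607.5 ± 72.6 and 485.5 ± 49.6 in SD air and SO2.

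Among mitochondrial carriers, Slc25a23, which exchanges ATP-magnesium for phosphate, averaged 287.6 ± 28 and 222.5 ± 42.3 in SH air and SO2 and 258.6 ± 72.2 and 173.4 ± 60.1 in SD air and SO2 (-0.46, SE 0.161, adjusted p = 0.436). Slc25a44, which imports branched-chain amino acids, was at 0.40 (SE 0.15, adjusted p = 0.459). The organic ion carriers Slc22a8 (0.38, adjusted p = 0.485) and Slc22a15 (0.27, adjusted p = 0.567, or 0.15 with array quality as a covariate) completed the averaged comparison with Slc35f5 at -0.29. Slc2a8, the intracellular hexose carrier GLUT8, read 313.5, 313.2, 232.5 and 178.3 in SD air and 189, 120.5, 145.5 and 96.6 in SD SO2 (-0.84, SE 0.352, adjusted p = 0.56). Those groups overlapped by 1 SD air and 1 SD SO2 array. Also named in SD rats were Slc29a1, the nucleoside carrier ENT1 (-0.37, or -0.23 without SD SO2 replicate 1), Slc24a3, a calcium exchanger (-0.37), and Slc20a1 (0.47, SE 0.166, adjusted p = 0.476). Without SD air replicate 2 the SO2 changes in SD rats were 1.21 for Slc28a2, 0.54 for Slc20a1, 0.53 for Slc7a5, 0.49 for Slc7a6, -0.47 for Slc7a8, -0.41 for Slc25a23, -0.74 for Slc2a8 and -0.26 for Slc15a4, none of them past the threshold (limma adjusted p from 0.472 to 0.673).

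**Figure D3:**
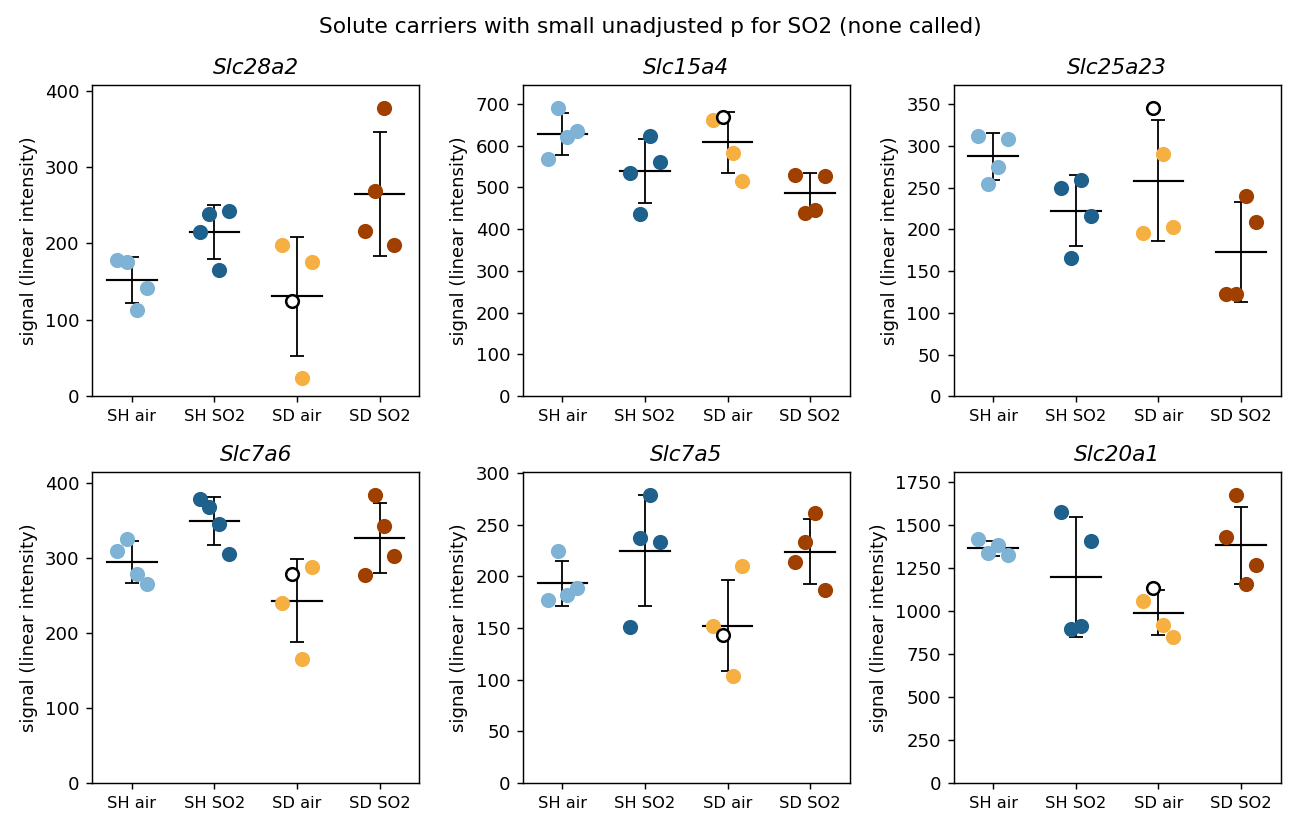
Signal (linear intensity, vertical axis from 0) of 6 solute carriers with small unadjusted p for SO2 on each array in the 4 groups; points are arrays, the line is the mean and the bar 1 SD, n = 4, with the array labelled SD air replicate 2 open. The low Slc28a2 point in SD air is replicate 3, at 23.8.

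In SH rats the 10 genes of smallest p, with 1 probe set per gene, had an adjusted p of 0.949. They were Slc39a3, the zinc importer ZIP3 (-0.47, SE 0.206), Slc4a2 (-0.32, or -0.18 without SH SO2 replicate 3), Slc35b2, which brings the sulfate donor PAPS into the Golgi (0.44, or 0.099 with the title number as a covariate), and Slc41a1, a magnesium carrier (0.56, or 0.15 with array quality as a covariate). The others were Slc22a8 (0.44, or 0.29 without SH SO2 replicate 2), Slc22a15 (0.36), the taurine carrier Slc6a6 (-0.31, or -0.055 with the title number), the zinc carrier Slc30a4 (-0.27), Slc4a1ap (-0.83, or -0.44 without SH SO2 replicate 2) and Slc22a18 (-0.35, or -0.16 without SH SO2 replicate 1). For Slc35b2 the SH air arrays read 177.1 to 204.7 and the SH SO2 arrays 217.3 to 313.5, with no overlap, while in SD rats the groups overlapped. Beside these values, the summed signals of macrophage and of ciliated cell markers did not overlap between SH SO2 and SH air: 1160 to 1457 against 1590 to 1886 for 2 macrophage markers and 4264 to 5441 against 5463 to 6239 for 3 ciliated cell markers. The ciliated sum was mostly Tppp3, with means of 4171 in SH SO2 and 4881 in SH air, while Tekt1 stood at 473.7 and 397.4 and Foxj1 at 421.6 and 434.6. Of the macrophage markers, Cd68 stood at 1142 and 1471 and Mertk at 230 and 260.5. Their part in the values was not tested, and in SD rats 0 of 12 lists separated air from SO2.

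The test of the difference between the SO2 effects of the strains called 0 of 192 members (0% of all probe sets), with 8 at an unadjusted p under 0.05 (4.17%, against 4.65%) and an adjusted p of 0.981 for each gene named. With 1 probe set per gene, the smallest p was that of Slc20a1, the sodium-phosphate cotransporter PiT1, at -0.70 (SE 0.235). In SH rats it measured 1417, 1334, 1384 and 1324 in air and 1576, 892, 912.5 and 1405 in SO2. In SD rats it measured 1057, 1136, 915.2 and 847.6 in air and 1428, 1675, 1158 and 1264 in SO2. The lowest readings were those of the whole SD air group and of SH SO2 replicates 2 and 3. The difference was -0.26 once the title number was a covariate. Slc4a2 (-0.55), Slc30a4 (-0.53), Slc41a1 (0.82), Slc39a3 (-0.63), Slc6a6 (-0.47), the carnitine carrier Slc22a5 (0.54), the glucose-6-phosphate carrier Slc37a4 (-0.33), the lactate exporter Slc16a3 (-0.51) and Slc25a29, a mitochondrial carrier of basic amino acids (0.58), followed. With the title number as a covariate, Slc4a2 was at -0.31, Slc41a1 at 0.52, Slc6a6 at -0.17, Slc22a5 at 0.33, Slc16a3 at -0.21 and Slc25a29 at 0.17; Slc16a3 was at -0.30 without SD air replicate 4 and Slc22a5 at 0.33 without SH SO2 replicate 3.

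The SO2 effects of the strains rest on separate arrays too. Over the members they correlated at r = 0.236, against 0.105 over all probe sets, with the same sign in 113 of 192 (58.9%, against 55.3%). Without SD air replicate 2 these correlations were 0.103 and 0.025, with the same sign in 54.7% and 52.3%.

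**Figure D4:**
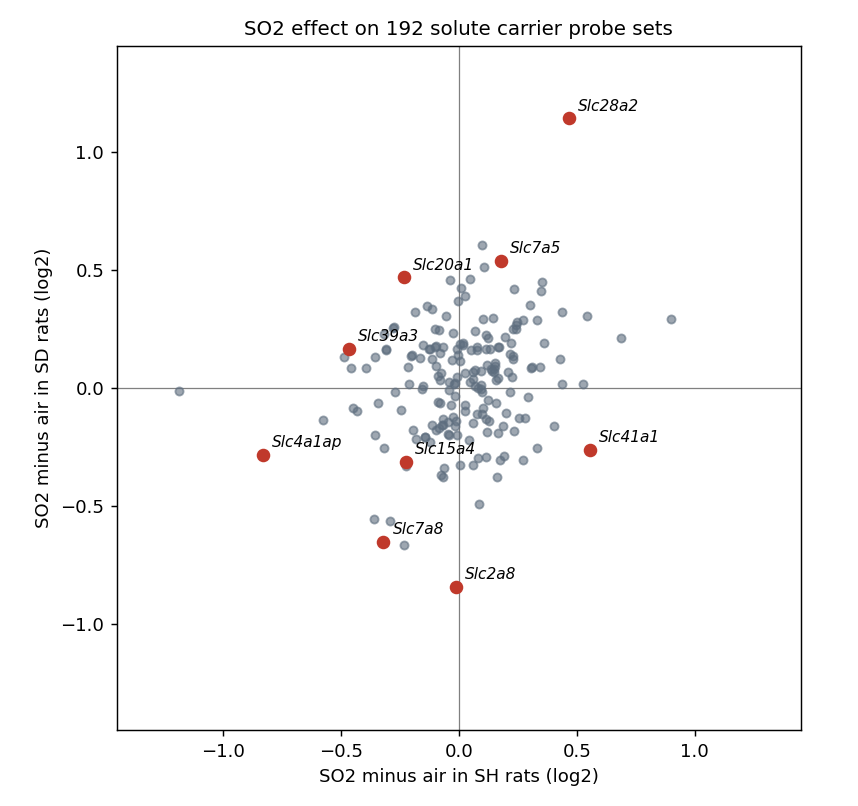
SO2 effect (SO2 minus air, log2) on the 192 member probe sets in SH rats (horizontal axis) and SD rats (vertical axis); each point is a probe set, and red points are named. Slc28a2 lies highest, at 1.15 in SD rats, and no point was called in either strain.

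Sorted by Slc family, with each family given a class by what it carries, the members fell into 8 classes of at least 4 probe sets. A member takes the class of its family, also where it carries something else. Shifts of the classes were not tested. For SO2 averaged over the strains, class medians ran from -0.11 for phosphate, sulfate and dicarboxylate carriers (4 probe sets) to 0.079 for acid-base, chloride, sodium and calcium carriers (21), against 0.016 over all probe sets and 0.037 over the members. Of the 21 acid-base and ion probe sets, 17 (81%) were above 0 with SO2 in SD rats (median 0.17), against 53.4% of all probe sets. In SH rats 11 (52.4%) were above 0 (median 0.0045), against 53.6%, and 0 were called in either strain. The 81% is singled out as the highest share of the 8 classes in either strain. All members together stood at 59.4% in SD and 53.6% in SH rats. The highest share in SH rats was 72.7%, in the nucleoside, nucleotide sugar and acetyl-CoA class, which had 54.5% in SD rats. Averaged over the strains, amino acid, peptide and amine carriers (41) had a median of -0.017 and metal carriers (27) 0.04. Mitochondrial carriers (24) had 6e-04 and sugar carriers (14) -0.0018. Carriers of monocarboxylates, fatty acids, organic ions, vitamins and urea (35) had 0.041, and those of nucleosides, nucleotide sugars and acetyl-CoA (22) 0.052. For the averaged strain difference the medians of the same 8 classes lay between -0.035 and 0.079, and the metal class, with Slc39a4, held the 1 call. With 1 probe set per gene, the smallest p for averaged SO2 among metal carriers was that of Slc31a1, the copper importer CTR1 (0.20, adjusted p = 0.605), which averaged 552.9 and 594.4 in SH rats and 456.5 and 566.1 in SD rats (air, SO2). In the ion class it was, on the same basis, that of the potassium-chloride cotransporter Slc12a7 (0.15, adjusted p = 0.608), and in the phosphate and dicarboxylate class that of the dicarboxylate carrier Slc13a2 (-0.19, adjusted p = 0.784). Between strains, that of the nucleoside and nucleotide sugar class was that of Slc35e4 (0.17, adjusted p = 0.505). Over all probe sets, dimmer ones had smaller p: those of Slc40a1 for metals (0.27, adjusted p = 0.559), of the bicarbonate cotransporter Slc4a7 for ions (0.45, adjusted p = 0.493) and of the lysosomal nucleoside carrier Slc29a3 between strains (-0.34, adjusted p = 0.372). Slc66a1, a lysosomal exporter of basic amino acids, and Slc66a2 belong to no class used here, and Slc66a2 was at -0.18 between strains (adjusted p = 0.378).

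**Figure D5:**
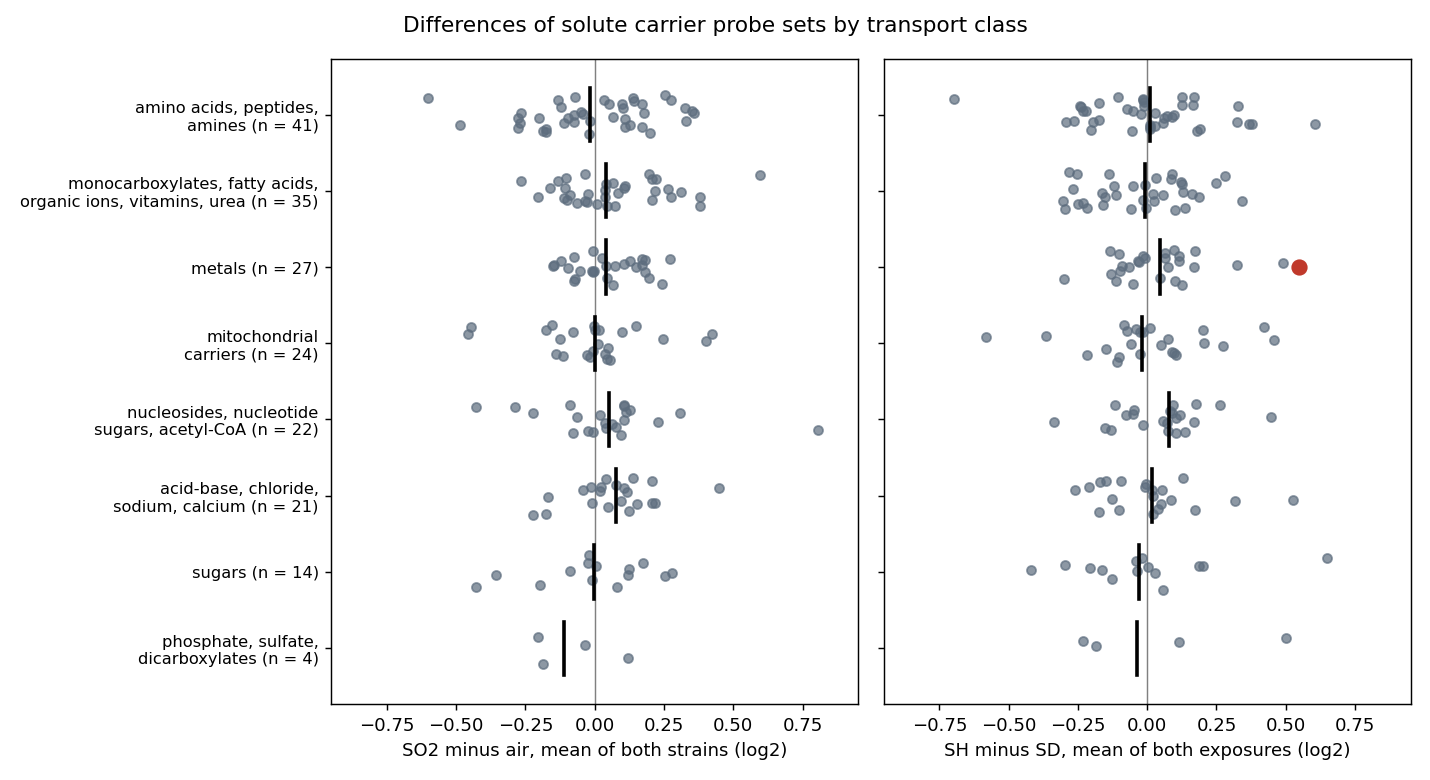
Averaged SO2 effect (left) and averaged strain difference (right) in log2 units of each member probe set, by transport class with its number of probe sets; the black bar is the class median and the red point a called probe set. All class medians lie near 0, from -0.11 to 0.079 on the left, and the red point is Slc39a4 at 0.55.

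Carriers well known in lung, blood or heart were named whatever their values. Of 29 such genes 21 were members, and 0 of these were called in any comparison; in the averaged comparisons the smallest limma adjusted p was 0.25, that of Slc39a8 between strains. Slc12a2, the sodium-potassium-chloride cotransporter that feeds airway chloride secretion, averaged 1938 ± 251 (air) and 2034 ± 150 (SO2) in SH rats and 1890 ± 219 and 2126 ± 390 in SD rats. The glucose carrier Slc2a1 averaged 410.5 ± 48.9, 391.1 ± 91.6, 425.7 ± 30.6 and 441.4 ± 19.6 in the same order. For both genes all 4 groups overlapped.

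The serotonin carrier Slc6a4, which clears serotonin from blood in lung vessels, averaged 435.8 ± 61.2, 469.6 ± 116, 565.5 ± 85.1 and 464.9 ± 121 in the same order of groups. Of the mitochondrial ADP/ATP exchangers, Slc25a4 averaged 2490 ± 220, 2461 ± 313, 2528 ± 274 and 2580 ± 459, and Slc25a5 averaged 5515 ± 384, 5239 ± 446, 5347 ± 217 and 5598 ± 337. The lactate carrier Slc16a1 averaged 434 ± 39.4, 465.9 ± 64.1, 416 ± 104 and 432.3 ± 82.4. Slc26a4, the anion exchanger pendrin of airway epithelium, read 172.9 ± 54.5, 129.2 ± 67.1, 135.7 ± 33.7 and 156.8 ± 68.1, near the level of the filter. The sodium-calcium exchanger Slc8a1 of heart muscle ranged from 127.8 to 269 over the 16 arrays, the insulin-responsive glucose carrier Slc2a4 from 91.9 to 239.4 and the peptide carrier Slc15a2 from 205.1 to 521.8. Of the amino acid carriers, Slc1a5, which exchanges glutamine, ranged from 286.2 to 584.8, and Slc7a1, which imports arginine and lysine, from 256.8 to 421.4.

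Slc4a1, the anion exchanger of red cells, was among the most variable members, from 24.5 on SH SO2 replicate 4 to 258.5 on SD SO2 replicate 4, with a within-group SD of 0.76 (log2). The sulfate carriers Slc26a1, Slc26a2, Slc13a1 and Slc13a4 and the arginine carrier Slc7a2 lay at or under the filter. Tested without the filter, none of the 88 Slc probe sets at or under it was called in any of the 7 comparisons, with 0 to 7 at an unadjusted p under 0.05 in each. Shares of all probe sets without the filter are not given here, so these counts cannot be read as a result about carriers. Slc26a11 and Slc11a1 were not analysed here.

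Most of the variation among arrays lay within groups. Strain took a median of 5.96% of a member's variance (4.68% over all probe sets), exposure 5.16% (4.41%) and their interaction 3.21% (3.04%), which left 78.7% (79%) within groups. The strain share passed 50% in 5 member probe sets (2.6%, against 1.9%): those of Slc39a4, Slc38a2, Slc5a1 and Slc49a4 and a second probe set of Slc1a1, a glutamate carrier. The median within-group SD was 0.27 for members and 0.25 for all probe sets (log2).

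Of 25 genes with several member probe sets, 10 had averaged strain differences of both signs, among them some close to 0 such as Slc7a1 (-0.014 and 0.010). The following were chosen after their values were seen. For Slc40a1, the iron exporter ferroportin, a second probe set read 196.2 to 221.4 in SH air and 274.9 to 355.3 in SH SO2 with no overlap (0.53, SE 0.171, adjusted p = 0.902). The brighter probe set of the same gene read 250.5 to 314 and 232.9 to 295.9 (-0.032, SE 0.167). For the glutamate carrier Slc1a3 the averaged strain difference ran from -0.70 to 0.12 over 3 probe sets, and for the phosphate carrier Slc20a2 from -0.23 to 0.50.

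Of 24 other transport genes on the array above the filter (aquaporins, organic anion carriers named Slco, sodium pump subunits and their regulators, and partner proteins), 0 were called for SO2 in either strain (0% of all probe sets). Between strains 1 was called, Slco1a5, an organic anion carrier, with mean signals of 671.5 (air) and 793.9 (SO2) in SH rats and 447 and 385.9 in SD rats. Its difference was 1.01 in SO2 (adjusted p = 0.000941) and 0.79 on average (adjusted p = 0.00021). Of all probe sets, 0.81% were called between strains in SO2 and 1.53% on average. With 1 call among 24 genes, the share is not read as a result about them.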

How the data were processed

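The authors deposited 1 linear intensity per probe set and array; the submitters' processing notes name GCOS, with no version, and no algorithm is stated in the labels. The mean intensity without the highest and lowest 2% of probe sets was 500.099 to 500.111 on every array, so the deposited scaling was kept. Detection calls were not used, and the number of arrays limits the precision. Members and lists were chosen with earlier results of these data known. Symbols came from the platform annotation, and 192 of 192 member probe sets matched a RefSeq gene table (GRCr8) by Entrez identifier with 0 changes. Values are log2(intensity + 16), which understates changes of dim probe sets; 57 control probe sets and the lowest 30% by mean were left out. Limma 3.58.1 (R 4.3.3; lmFit, eBayes with trend) fitted 1 mean per group to all 16 arrays with 12 residual degrees of freedom, with Benjamini-Hochberg adjustment over the 11106 probe sets. The probe set with the highest mean stood for a gene. Named were called members, otherwise the 10 of smallest p in each of 7 comparisons, the smallest p of each class, and 29 fixed genes. "Array quality" means the 10th percentile of signal and the 3′ to 5′ actin ratio. The fit was tested on simulated data. Replicates are labelled biological, so p-values cover the spread between these animals. Of 120 pairs of arrays, 0 were identical. Figures used matplotlib 3.10.9 in Python 3.11.15.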

Additional observations from a re-analysis of the deposited data

Results flagged for a closer look

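In 5 of 184 checks of a named carrier in a group of 4 arrays, a reading stood far from the other 3, where chance gives about 1 in 20, or 9.2. Slc39a4 read 2188.4 on the array labelled SD air replicate 2, against 1084.4 to 1257 on the others of its group. Slc20a2 read 20.4 on SD air replicate 4, against 170 to 182.8. Slc22a18 read 645.4 on SH air replicate 2, against 550.8 to 564.8. Slc35f5, of the nucleotide sugar carrier family, read 238.5 on SH SO2 replicate 2, against 287.6 to 291. Slc35e4, of the same family, read 423.6 on SD SO2 replicate 2, against 391.9 to 395.9.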

How the results depend on the processing

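The alternatives were other offsets, other scalings, other filters, covariates, a replicate block, other eBayes settings, array weights, the compared arrays alone and each array left out. Counts of called members were 0 throughout for the 4 comparisons of SO2. For the averaged strain difference the count of 1 became 2 with an offset of 64, 3 with quantile normalization, 2 with the lowest 50% left out, 2 with a robust prior, 3 with array weights, 0 with the title number as a covariate and 3 with array quality as a covariate, and ran from 1 to 5 with an array left out (5 without SD air replicate 2, 2 without SD SO2 replicate 1, 2 or 4). For the strain difference in SO2 the count of 0 became 1 with array quality as a covariate and 1 with only the compared arrays, and ran from 0 to 1 with an array left out (1 without SH SO2 replicate 4, SD air replicate 2 or SD SO2 replicate 4). In air it ran from 0 to 1 (1 without SD air replicate 2). The averaged call of the main fit was 0.521% of members, against 1.53% of all probe sets. Without SD air replicate 2 the averaged count of 5 was 2.6% of members, against 2.49% of all. The call in air was then 0.521% against 0.774%, and that in SO2 0.521% against 1.04%. Shares of all probe sets under the other settings are not given here, so their counts cannot be read as a result about carriers. SH air arrays carry title numbers 40 to 43 and SD SO2 arrays 47 to 50, so title number and group cannot be fully told apart. The labels do not say what the title number stands for. With the replicate number as a block, the count was 1 for the averaged strain difference and 0 for the other comparisons. Same-numbered arrays of different groups deviated with correlations from -0.433 to 0.151, over 0.1 in 4 of 24 pairs, so the numbers do not pair the arrays. Values of 3 settings changed sign: Slc25a30 in air, to -0.008 with the title number, and Slc4a1ap between strains, from 0.17 to -0.12 with the title number and to between -0.0902 (without SD SO2 replicate 1) and 0.3698 with an array left out. Of the other changes of a named gene under an alternative, 2251 kept direction and side of the threshold, 22 passed it and 2 lost it; the lowest 50% setting gives no value for dimmer genes.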
